A study of Mus musculus with 6 samples.

Results

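Genes of the p53 pathway were followed in a mouse model of Philadelphia chromosome-positive acute lymphoblastic leukaemia, in which BCR-ABL1, a fusion kinase, transforms pre-B cells. The set held 33 genes chosen by name, with earlier results of these data known: p53 itself, its regulators and its transcriptional targets. Of these, 31 had a probe set assigned to 1 gene and were measured among 19938 genes in all, while Trp53 and Cdkn1a were not analysed here. The cells came from mice of 5 weeks on a mixed 129SvEv x C57BL/6J background, and all samples carried floxed Sox4 alleles (Sox4fl/fl) and were taken 24 h after 4OHT (4-hydroxytamoxifen). The control construct in 3 samples was ERT2, an oestrogen receptor domain without a recombinase, and the construct in the other 3 samples was Cre-ERT2, in which 4OHT activates the Cre recombinase. Total RNA was hybridised to 1 Affymetrix array per sample. Cells with active Cre and intact Sox4 alleles are not among the 6 samples, so effects of Cre itself and of Sox4 loss cannot be told apart. No source used here gives the promoter of the constructs or says that the 3 samples of a group were separate cultures, so the p-values rest on a spread between samples that may be purely technical.

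p53 is a transcription factor that is kept low by the ubiquitin ligase MDM2 and its relative MDM4, and that is stabilised when DNA is damaged or when oncogenes or ribosomal faults stress the cell. It then switches on genes that stop the cell cycle, repair DNA, adjust metabolism or start apoptosis, together with genes such as Mdm2, Ppm1d and Ccng1 that switch p53 off again. In B-cell precursors the pathway is known for its guard over DNA breaks made during antibody gene recombination and as a brake on transformed cells.

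Arrays had median intensities of 273 to 279, and precision is limited by their number. Sox4, the floxed gene, read 1459, 1372 and 1237 in the ERT2 arrays and 599, 541 and 499 in the Cre-ERT2 arrays, a log2 difference of -1.31 (SE 0.0912, limma adjusted p = 0.000434; exact two-sided permutation p = 0.1, the smallest that 3 against 3 allows). None of 7 measured pre-B cell markers passed the test (limma; 1 had an unadjusted p under 0.05), and their summed intensity was 68416 to 68941 in ERT2 and 66363 to 67751 in Cre-ERT2 arrays. The 1 gene was Pax5, close to the threshold, with a difference of -0.22 and no overlap between groups (95% interval -0.34 to -0.10, limma adjusted p = 0.0552). Of the 7 differences 3 were above 0 and 4 below. Of 5 myeloid markers 1 was higher and 1 lower, with sums of 909 to 966 and 1375 to 1550, a rise carried by Lyz2, the lysozyme of phagocytes. Of 7 stress genes of handled cultures, 1, Egr1, was lower, with sums of 4178 to 4639 and 4599 to 4851. At an unadjusted p under 0.05 there were 3 of the 7 higher (Jun, Atf3 and Hspa1a, with differences of 0.18, 0.26 and 0.32) and 2 lower. None of the 3 T-cell, 3 NK-cell, 1 erythroid and 4 stromal markers measured passed the limma test, and 1 of them, a T-cell gene, had an unadjusted p under 0.05. The summed levels were 448 to 463 and 423 to 453 for the T-cell markers, 157 to 174 and 160 to 168 for the NK-cell markers, 141 to 158 and 153 to 189 for the erythroid marker, and 1097 to 1300 and 1187 to 1314 for the stromal markers. The part of these markers in the results was not tested. ERT2 replicate 2 stood farthest from its group, with SDs of its log2 differences to the other controls of 0.231 and 0.242 against 0.184 between those, and it gave the highest of the 3 control values in 20 of 31 members. Cre-ERT2 replicate 2 was the highest of its own group in 19 of 31.

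The upstream windows of the members show how far a p53 site lies close to their start. RefSeq windows of 300 bases (250 before and 50 after a transcription start, assembly GRCm38.p6) were available for 25 of the 33 genes, in 32 windows. They were searched on both strands for the p53 half-site, a decamer of 3 purines, C, a pair of A or T, G and 3 pyrimidines, which reads the same on both strands. They were also searched for a tandem p53 site, 2 such decamers that keep the inner C and G, with a spacer of up to 13 bases and at most 3 mismatches in all. An exact half-site stood in 13 of the 32 windows (40.6%), where 8.36% of all 32851 windows held one, and a tandem site in 13 (40.6%) against 15.6%. The 2 windows of Aen overlap and hold the same sites, so these are counted again. By gene, a half-site was found in 12 of 25 and a tandem site in 11. The members were chosen as p53 pathway genes and targets. An excess of p53 sites may therefore be built into the list and is not independent evidence. The 25 genes include Trp53 and Cdkn1a, whose intensities were not analysed here. The searches overlap, since a half-site can be part of a tandem site. Of the genes with a window, an exact half-site was found in 2 of 7 that rose, 0 of 3 that fell and 8 of 13 that did not pass the test described next. The SOX core ACAAAG was in 6 of the 32 windows (18.8%) and in 18.7% of all windows, and the core ACAATG in 1 (3.12%) and in 12.6% of all windows. A match is a stretch of letters and not a measured binding site. Sequence farther than 250 bases before or 50 after a start was not searched, so a gene without a match may have a site elsewhere. Printed here, from RefSeq, are the windows of the genes that changed and hold a half-site or a tandem site (Ccng1 and Ei24, which rose, and Plk3, which fell) and of the measured genes that did not pass but hold a tandem site with at most 1 mismatch (Gtse1 and Rps27l). Capitals mark the decamers, 5′ to 3′ on the gene's strand. For Ccng1 (chr11:40755237-40755536, minus strand) they span positions -195 to -176 from the start, with 1 mismatch and no spacer. For Ei24 (chr9:36797285-36797584, minus strand) an exact half-site spans -10 to -1. For Plk3 (chr4:117133914-117134213, minus strand) they span -238 to -207 with 3 mismatches and a spacer of 12 bases. For Gtse1 (chr15:85859696-85859995, plus strand) they run from -1 to 19 with 1 mismatch, and for Rps27l (chr9:66946163-66946462, plus strand) from -117 to -98 with 1 mismatch.
Ccng1: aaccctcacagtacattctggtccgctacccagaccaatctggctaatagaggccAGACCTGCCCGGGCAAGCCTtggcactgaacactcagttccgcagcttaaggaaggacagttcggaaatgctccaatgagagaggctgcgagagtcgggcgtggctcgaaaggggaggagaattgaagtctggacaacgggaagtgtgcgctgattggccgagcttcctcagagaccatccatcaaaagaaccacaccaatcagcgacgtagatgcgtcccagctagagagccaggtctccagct
Ei24: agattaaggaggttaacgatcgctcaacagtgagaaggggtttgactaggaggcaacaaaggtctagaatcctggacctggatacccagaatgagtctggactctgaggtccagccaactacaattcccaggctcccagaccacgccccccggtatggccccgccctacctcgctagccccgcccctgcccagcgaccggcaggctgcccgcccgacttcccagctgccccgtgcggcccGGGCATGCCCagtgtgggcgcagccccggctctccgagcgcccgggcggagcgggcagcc
Plk3: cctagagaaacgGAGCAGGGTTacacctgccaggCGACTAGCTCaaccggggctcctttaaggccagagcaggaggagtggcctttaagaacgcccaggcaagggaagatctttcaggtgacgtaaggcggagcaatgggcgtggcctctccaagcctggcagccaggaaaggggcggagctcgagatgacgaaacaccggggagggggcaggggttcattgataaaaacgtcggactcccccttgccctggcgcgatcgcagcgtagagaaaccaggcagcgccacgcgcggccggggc
Gtse1: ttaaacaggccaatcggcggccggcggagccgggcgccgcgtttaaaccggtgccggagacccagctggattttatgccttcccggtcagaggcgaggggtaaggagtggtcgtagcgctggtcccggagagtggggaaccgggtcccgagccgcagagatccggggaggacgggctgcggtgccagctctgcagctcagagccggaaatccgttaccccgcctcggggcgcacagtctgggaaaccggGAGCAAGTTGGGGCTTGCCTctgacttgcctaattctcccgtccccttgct
Rps27l: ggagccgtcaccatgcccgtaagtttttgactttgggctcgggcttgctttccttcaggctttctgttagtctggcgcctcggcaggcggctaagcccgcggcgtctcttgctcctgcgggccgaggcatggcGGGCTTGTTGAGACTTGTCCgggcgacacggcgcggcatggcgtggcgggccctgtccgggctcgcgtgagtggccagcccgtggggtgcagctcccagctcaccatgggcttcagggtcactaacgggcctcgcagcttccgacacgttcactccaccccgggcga

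The question put to the arrays was which p53 pathway genes differed between Cre-ERT2 and ERT2 cells 24 h after deletion was induced. Higher intensities in Cre-ERT2 cells were found for 11 of 31 members and lower ones for 4, and 16 did not pass (limma on log2(intensity + 1), Benjamini-Hochberg adjusted p under 0.05 over all 35556 probe sets). Over all 19938 genes 4.38% were higher and 3.72% lower, together 8.1% (6.05% of all probe sets), against 35.5%, 12.9% and 48.4% of the members. As the members were chosen with earlier results of these data known, this excess is not independent evidence. Of the members 27 had a mean above that of the median probe set, and among the 10479 genes above it 6.98% were higher and 5.28% lower, together 12.3%. The median log2 difference was 0.16 over the members and 0.02 over all genes. In 23 of 31 members (74.2%) the difference was above 0, as in 59.3% of all genes.

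The largest rise was that of Phlda3 (1.04 on the log2 scale) and the largest fall that of Eda2r (-1.19), and these were the 2 called members that differed by more than 2-fold. A larger rise than that of Phlda3 was seen in 94 genes and a larger fall than that of Eda2r in 119. Of the members, 11 lay above the 95th percentile of all genes' log2 differences (0.27) and 5 below the 5th percentile (-0.24). The 15 called members had no overlap between groups. Counting members that did not pass as well, all 3 Cre-ERT2 arrays lay above all 3 ERT2 arrays in 19 members (61.3%, against 17.5% of all genes) and below them in 6 (19.4%, against 10.8%). Among the genes above the median probe set these shares were 25.5% and 15%, so the share of lower members lay near that background. In bulk RNA such as this, a change in the share of cells that express a gene and a change per cell cannot be told apart.

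**Figure D1:**
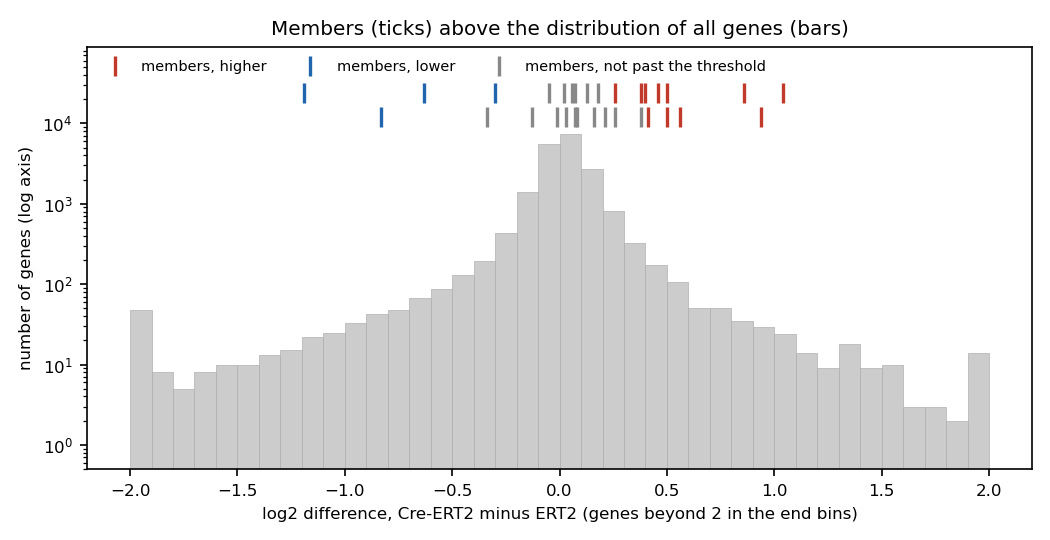
Number of genes (bars, log axis) by log2 difference between Cre-ERT2 and ERT2 cells in steps of 0.1, with genes beyond 2 placed in the end bins, and each of the 31 p53 pathway members as a tick above. Called members lie from -1.19 to -0.30 (blue) and from 0.26 to 1.04 (red), while the bars peak around 0.

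The number of risen members depended on the array set. Leaving out ERT2 replicate 1, 2 or 3 gave 8, 11 and 6, and leaving out Cre-ERT2 replicate 1, 2 or 3 gave 6, 6 and 7. The number of fallen members was 3 without any 1 of the 6 arrays. The share of all genes called fell as well, to between 4.75% and 7.8%, while the share of members called lay between 29% and 45.2%. Phlda3, Zmat3, Plk2, Tnfrsf10b, Trp53inp1, Ccng1, Eda2r, Plk3 and Btg2 passed without any 1 of the arrays.

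**Figure D2:**
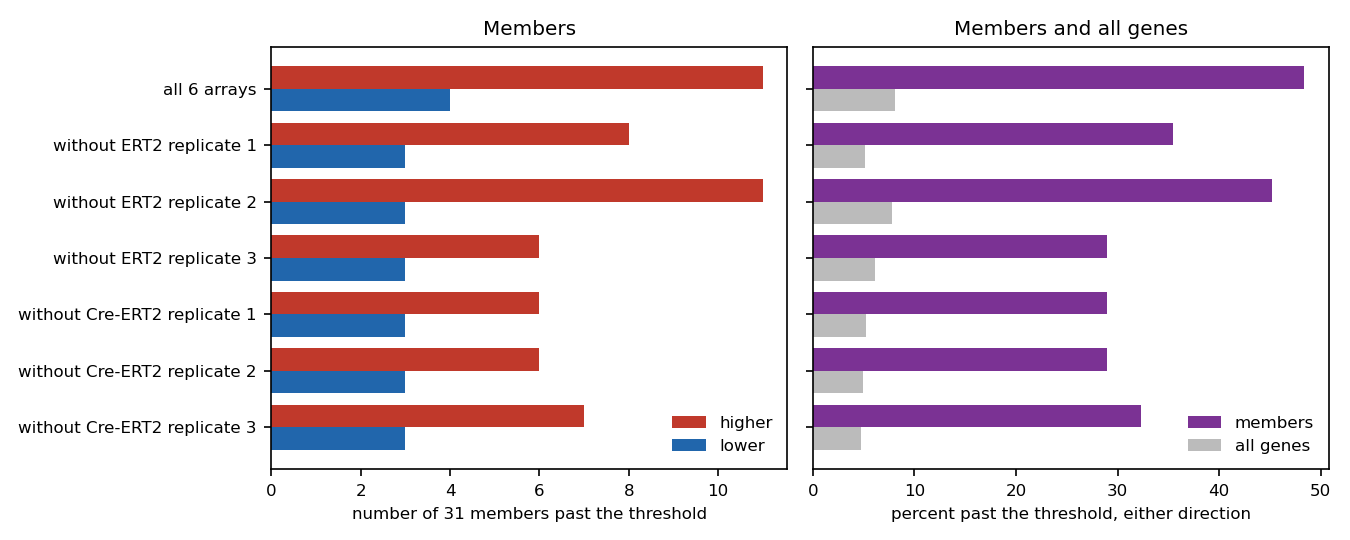
Left, number of the 31 members higher (red) or lower (blue) in Cre-ERT2 cells with all 6 arrays and with each array left out; right, percent of members (purple) and of all 19938 genes (grey) past the threshold in either direction. Members fall from 11 and 4 to as few as 6 and 3, and their share stays above that of all genes in each array set.

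Of the regulators and feedback genes, Ccng1 rose while Mdm2 did not pass. Ccng1 encodes cyclin G1, a p53 target that brings a phosphatase to MDM2. It read 7383, 8028 and 8111 in the ERT2 arrays and 10218, 10354 and 10386 in the Cre-ERT2 arrays, with every Cre-ERT2 array above every control. Its mean rose from 7841 ± 398 to 10319 ± 89.2 (SD, n = 3 each), 0.40 on the log2 scale (SE 0.0541, limma adjusted p = 0.00749). Its promoter window, printed above, holds a tandem site with 1 mismatch, as do those of Gtse1 and Rps27l, which did not pass.

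Mdm2, the ubiquitin ligase that is both the chief inhibitor and a target of p53, read 2104, 2212 and 2193 in ERT2 arrays and 2215, 2258 and 2153 in Cre-ERT2 arrays. The groups overlapped, and the log2 difference was 0.03 with a 95% interval from -0.09 to 0.14 (limma adjusted p = 0.877). Mdm4, its relative that blocks p53 without degrading it, read 2640, 2921 and 2719 against 2926, 3167 and 3158, a difference of 0.16 (95% interval 0.01 to 0.31, adjusted p = 0.25). Ppm1d, the WIP1 phosphatase that switches off p53 and its upstream kinases, differed by 0.07 (95% interval -0.04 to 0.19), and Rps27l, a ribosomal protein relative that acts on MDM2, by 0.13 (95% interval 0.01 to 0.25). In Mdm4, Ppm1d and Rps27l all Cre-ERT2 arrays lay above all controls, and none of these 3 genes passed. The same order was seen in 25.5% of all genes above the median probe set, where these 3 lie.

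Genes of arrest and growth control moved in opposite directions, with 2 of 6 measured members higher and 2 lower (33.3% each). Over all genes 4.38% were higher and 3.72% lower, and among those above the median probe set 6.98% and 5.28%. Each role holds few members, chosen with earlier results of these data known, so the counts by role are not independent evidence. Zmat3, a zinc-finger RNA-binding protein of the p53 response, read 749, 824 and 725 in ERT2 arrays and 1481, 1494 and 1440 in Cre-ERT2 arrays. The Cre-ERT2 mean of 1472 ± 28 was 192% of the control mean of 766 ± 51.7 (SD, n = 3 each), and the log2 difference was 0.94 (SE 0.0617, limma adjusted p = 0.000345). It had the smallest p of all members.

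The polo-like kinases Plk2 and Plk3, both stress-responsive relatives of the mitotic kinase PLK1, moved apart. Plk2 read 145, 124 and 115 against 245, 250 and 205, a rise of 0.86 (SE 0.113, adjusted p = 0.00651). Plk3 read 471, 551 and 459 against 272, 297 and 263, a log2 difference of -0.83 (SE 0.087, adjusted p = 0.00253). The groups did not overlap in either gene, and Plk2 was one of the 4 members below the median probe set, and its spread among controls was the widest of all members (SD 0.17 on the log2 scale). Its control values of 115 to 145 lay close to the lower quartile of those arrays (114 to 118), so its difference, and its difference from Plk3 given further on, are less certain than those of brighter genes.

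Btg2, an anti-proliferative cofactor of mRNA deadenylation, read 1020, 1001 and 949 against 672, 649 and 599, a log2 difference of -0.63 (SE 0.0621, adjusted p = 0.00193), and its Cre-ERT2 mean was 64.6% of the control mean. Gadd45a, a stress protein that slows the G2-M transition, read 397, 436 and 371 against 276, 338 and 339. Its groups did not overlap and its difference was -0.34, but it did not pass (95% interval -0.58 to -0.09, adjusted p = 0.141), with the widest Cre-ERT2 spread of all members (SD 0.169 on the log2 scale). Gtse1, a G2 and S phase protein that binds p53 and moves it out of the nucleus, differed by 0.18 (95% interval 0.06 to 0.30, adjusted p = 0.121).

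**Figure D3:**
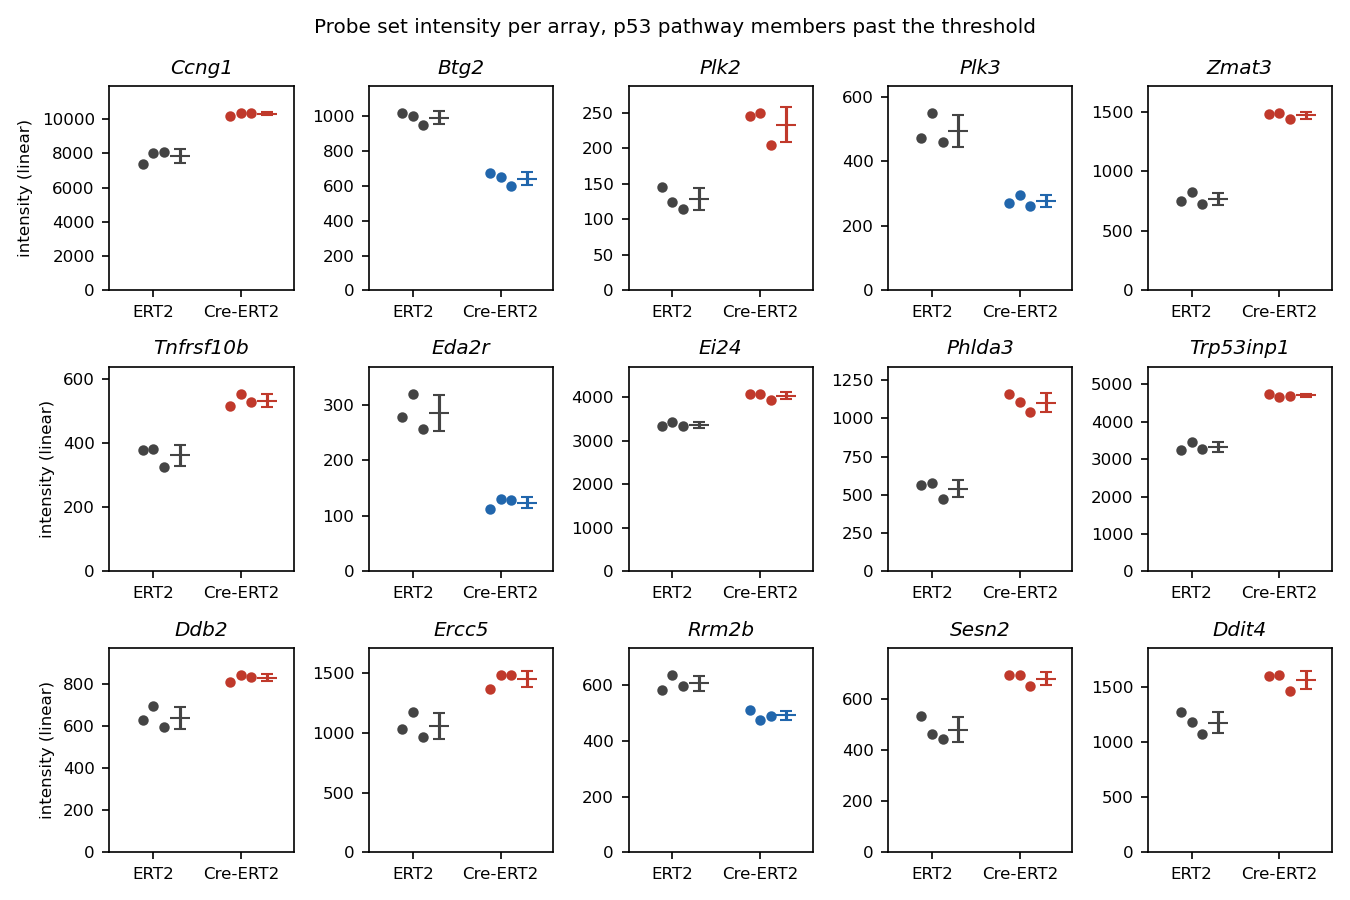
Probe set intensity (linear scale from 0) on each of the 3 ERT2 and 3 Cre-ERT2 arrays for the 15 members past the threshold, with group mean and SD beside the points. Red Cre-ERT2 points mark the 11 genes that rose and blue ones the 4 that fell, and the groups do not overlap in any of the 15.

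Of 11 genes of the death programme, 4 rose and 1 fell (36.4% and 9.09%). Among all genes above the median probe set these shares were 6.98% and 5.28%, and the same limit on counts by role holds. Phlda3, whose pleckstrin homology domain keeps AKT from the membrane, read 564, 580 and 476 in ERT2 arrays and 1162, 1106 and 1043 in Cre-ERT2 arrays. Its mean went from 540 ± 56.1 to 1104 ± 59.3 (SD, n = 3 each), a rise of 1.04 on the log2 scale (SE 0.0888, limma adjusted p = 0.00105). Every Cre-ERT2 array was above the highest control.

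Death receptors differed among themselves. Tnfrsf10b, the mouse receptor of the death ligand TRAIL, read 379, 382 and 325 against 514, 554 and 528, a rise of 0.56 (SE 0.0766, adjusted p = 0.00794). Eda2r, the ectodysplasin A2 receptor of the TNF receptor family, read 278, 320 and 257 against 113, 131 and 128, a log2 difference of -1.19 (SE 0.0995, adjusted p = 0.000939), with a Cre-ERT2 mean at 43.4% of the control mean. Fas, the receptor of Fas ligand, read 80 to 90.9 in ERT2 and 79.2 to 87.7 in Cre-ERT2 arrays, below the lower quartile of each array (114 to 120), and its difference was -0.05 (95% interval -0.22 to 0.12). Eda2r in the Cre-ERT2 arrays, at 113 to 131, lay close to that quartile as well, and its mean was below that of the median probe set. The size of its difference, and of its difference from Tnfrsf10b given further on, is therefore less certain than for brighter genes.

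Inside the cell, Trp53inp1, a nuclear stress protein that aids p53 phosphorylation and autophagy, read 3237, 3464 and 3273 against 4752, 4672 and 4691 and rose by 0.50 (SE 0.0485, adjusted p = 0.00177). Ei24, an endoplasmic reticulum protein induced by p53 and linked to autophagy, read 3327, 3439 and 3327 against 4075, 4080 and 3937 and rose by 0.26 (SE 0.0457, adjusted p = 0.0223). It was the smallest change among called members and failed the test when any array except ERT2 replicate 2 was left out (0.0671 to 0.107). Its window, printed above, has an exact half-site directly before the start.

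Pmaip1, which encodes the BH3-only protein NOXA, read 360, 385 and 362 against 373, 369 and 376, and its difference was 0.02 (95% interval -0.10 to 0.13). Apaf1, the scaffold of the apoptosome, differed by 0.08 (-0.14 to 0.30) and Perp, a desmosomal membrane protein with a role in apoptosis, by 0.07 (-0.04 to 0.19). Perp, at 121 to 133, lay close to the lower quartile of the arrays (114 to 120), so its difference is less certain than those of brighter genes. Aen, a nuclease of apoptotic DNA, and Pidd1, the scaffold of caspase-2 activation, were close to the threshold. Aen read 1153, 1185 and 1097 against 1294, 1423 and 1387, a difference of 0.26 (SE 0.0587, adjusted p = 0.0595), and Pidd1 read 783, 775 and 743 against 911, 877 and 865, a difference of 0.21 (SE 0.0489, adjusted p = 0.068). The groups of Aen and Pidd1 did not overlap. Aen passed under 5 of 16 alternative settings and Pidd1 under 1.

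Repair genes had 2 of 5 higher and 1 lower (40% and 20%, against 6.98% and 5.28% of all genes above the median probe set). Ddb2, which with DDB1 finds ultraviolet lesions for nucleotide excision repair, read 625, 693 and 592 against 808, 842 and 831 and rose by 0.38 (SE 0.0684, limma adjusted p = 0.0248). Ercc5, the XPG endonuclease that cuts beside the lesion, read 1033, 1169 and 961 against 1367, 1484 and 1482 and rose by 0.46 (SE 0.0829, adjusted p = 0.0254). Xpc, which recognises lesions in the same pathway, read 764, 761 and 773 against 717, 663 and 724. It lay below all controls in each Cre-ERT2 array, but its difference of -0.13 did not pass (adjusted p = 0.284).

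Rrm2b, the p53-inducible small subunit of ribonucleotide reductase that supplies nucleotides for repair, read 583, 637 and 598 against 509, 475 and 490, a log2 difference of -0.30 (SE 0.0563, adjusted p = 0.0285). Polk, the translesion polymerase kappa, read 679, 818 and 762 against 916, 1037 and 980, a difference of 0.38 (SE 0.0849, adjusted p = 0.0553), as large as that of Ddb2 but with a wider error. The calls of these genes depended on the full set of arrays. Ddb2 and Ercc5 lost theirs when an array except ERT2 replicate 2 was left out (0.0649 to 0.104 for Ddb2 and 0.0545 to 0.108 for Ercc5). Over the 6 omissions their log2 differences lay between 0.33 and 0.44 for Ddb2 and between 0.39 and 0.53 for Ercc5. Rrm2b lost its own whichever array was left out (0.0565 to 0.121), with differences from -0.33 to -0.26, and Polk gained one without ERT2 replicate 2 (0.0415).

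Of 4 metabolic members 2 rose and 0 fell (50% and 0%, against 6.98% and 5.28% of all genes above the median probe set). Sesn2, a sestrin that holds back mTORC1 when amino acids are scarce, read 534, 462 and 443 against 692, 694 and 648 and rose by 0.50 (SE 0.0807, adjusted p = 0.0155). Ddit4, which encodes the mTORC1 inhibitor REDD1, read 1278, 1183 and 1079 against 1606, 1615 and 1469 and rose by 0.41 (SE 0.0776, adjusted p = 0.0304). Sesn2 and Ddit4 also respond to ATF4, the factor of the integrated stress response, whose part here was not tested. Sesn1, the sestrin more closely tied to p53, read 3301, 3629 and 3214 against 3443, 3648 and 3485, with overlapping groups and a difference of 0.06 (95% interval -0.09 to 0.21). Tigar, a fructose bisphosphatase that slows glycolysis, read 704, 696 and 701 against 708, 723 and 658, a difference of -0.01 (95% interval -0.14 to 0.12). Sesn2 lost its call when ERT2 replicate 3 or either of Cre-ERT2 replicates 1 and 2 was left out (0.0506 to 0.0695), and Ddit4 did so for each array except ERT2 replicate 1 (0.0643 to 0.119).

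**Figure D4:**
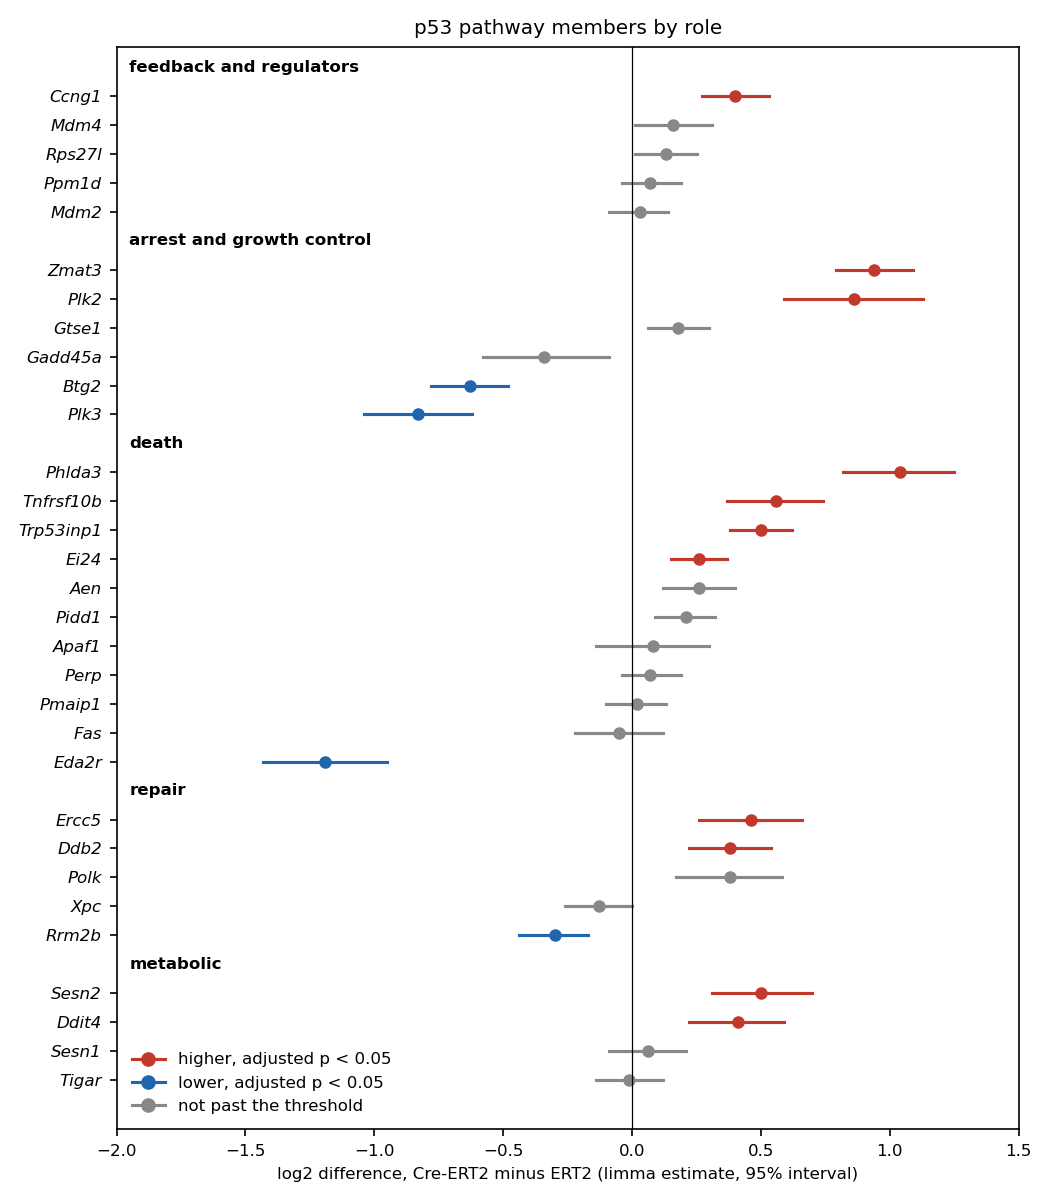
Log2 difference between Cre-ERT2 and ERT2 cells for each of the 31 measured members, grouped by role, as limma's estimate with its 95% interval (n = 3 arrays per group). Red genes were higher and blue genes lower at an adjusted p under 0.05, and the arrest, death and repair groups each hold both red and blue genes.

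Related members were set against each other within arrays in 4 pairs, as the log2 difference between both genes on each array. The change of Plk2 exceeded that of Plk3 by 1.69 on the log2 scale (SE 0.145), and that of Tnfrsf10b exceeded that of Eda2r by 1.75 (SE 0.07). The change of Sesn2 exceeded that of Sesn1 by 0.44 (SE 0.107), and that of Mdm4 exceeded that of Mdm2 by 0.13 (SE 0.0516). In all 4 pairs the values of both groups did not overlap. Each exact two-sided permutation test of 3 against 3 arrays gave p = 0.1 (0.1 after Benjamini-Hochberg adjustment over the 4 pairs), the smallest this design allows. For Plk2 with Plk3 and Tnfrsf10b with Eda2r this outcome was fixed beforehand. There the first gene was higher without overlap and the second lower without overlap. The pairs were also chosen with earlier results of these data known. No pair passed a threshold of 0.05, and with 3 against 3 arrays none could have.

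Further p53 targets outside the set, from a list of 18, were measured in 14 cases, and 3 rose and 1 fell (median 0.10). Dglucy, a mitochondrial D-glutamate cyclase, read 786, 868 and 739 against 1648, 1744 and 1681 and rose by 1.09 (SE 0.07, limma adjusted p = 0.000328). Ephx1, the microsomal epoxide hydrolase, read 695, 713 and 703 against 1358, 1289 and 1340 and rose by 0.92 (SE 0.0462, adjusted p = 0.000134). Pltp, a phospholipid transfer protein, rose by 0.29, and Pgf, a placental growth factor of the VEGF family, differed by -0.30. Leaving out ERT2 replicate 1 or a single Cre-ERT2 array ended the calls of Pltp (0.0681 to 0.102) and of Pgf (0.0736 to 0.105), which left 0 fallen. Bax, Gdf15, Fdxr and Gls2 were not analysed here. The share called in this list was 28.6%, against 8.1% of all genes and 12.3% of those above the median probe set. This list, too, was chosen with earlier results of these data known, so its excess is not independent evidence.

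Of 20 relatives, upstream kinases and modifiers of p53, all measured, 1 rose and 2 fell (median -0.02). These are 15% of the list, of which 19 genes lie above the median probe set, where 12.3% of all genes passed. Ppp1r13b, which encodes ASPP1, a partner that directs p53 towards death genes, read 545, 578 and 535 against 305, 291 and 252, a log2 difference of -0.97 (SE 0.082, adjusted p = 0.00098). Hipk2, a kinase that phosphorylates p53 in the death response, read 2914, 2861 and 2612 against 1938, 2044 and 1957, a difference of -0.50 (SE 0.0597, adjusted p = 0.00457). Rchy1, the PIRH2 ubiquitin ligase of p53, rose by 0.28 (adjusted p = 0.0432), a call lost when any array except ERT2 replicate 2 was left out (0.0798 to 0.161), which left 0 risen. Trp53bp2, the ASPP2 relative of Ppp1r13b, had a difference of -0.20 without passing (adjusted p = 0.095). None of the 3 damage kinases Prkdc, Atm and Atr passed, with differences of 0.37 (95% interval 0.10 to 0.63, groups not overlapping), 0.14 and 0.10 (both with overlapping groups).

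Cell-cycle genes that p53 lowers through p21 and the DREAM repressor complex were measured in 14 of 15 cases, and 0 rose and 0 fell (limma; 1 had an unadjusted p under 0.05). All 14 lay above the median probe set, where 12.3% of genes passed, so 0 calls among so few genes is not far from that share. Differences of the 14 ran from -0.11 to 0.17 with a median of -0.01. Mybl2, a transcription factor of the cell cycle, had the smallest p, with a difference of 0.17 (95% interval 0.02 to 0.33, adjusted p = 0.233). Birc5, which encodes survivin, differed by 0.11, Aurka, a mitotic kinase, by 0.09 and Cdc25c, a phosphatase that starts mitosis, by -0.11. For Ccna2 and Ccnb2, which encode cyclins A2 and B2, the 95% intervals ran from -0.13 to 0.08 and from -0.11 to 0.10. Ccnb1 was not analysed here.

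**Figure D5:**
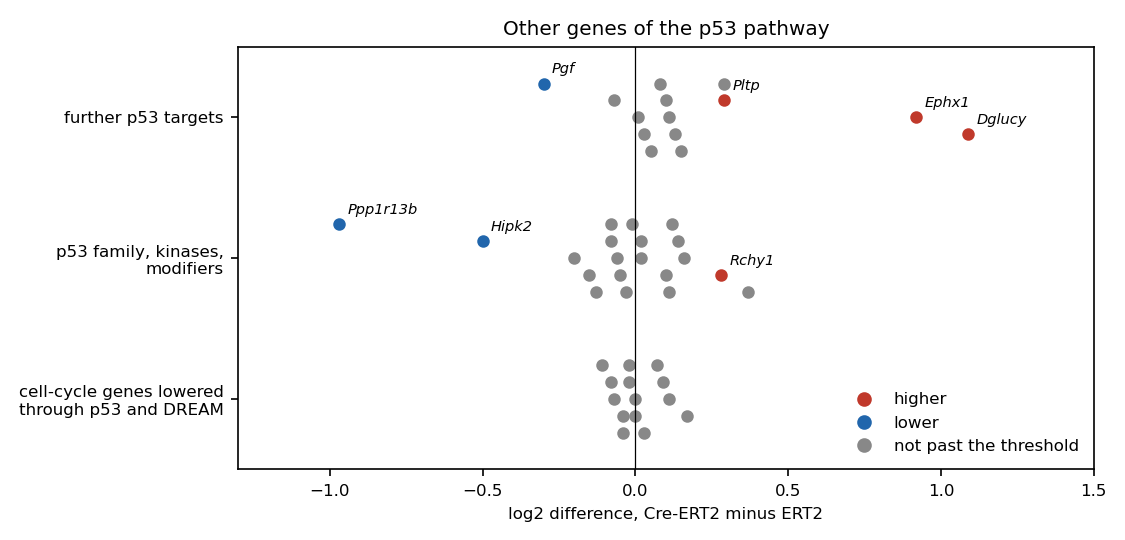
Log2 difference between Cre-ERT2 and ERT2 cells for each measured gene of 3 further lists, with genes spread vertically within a list so that points can be told apart. Named points passed the threshold, 3 higher and 1 lower among 14 further targets and 1 higher and 2 lower among 20 relatives and modifiers, while the 14 cell-cycle genes lie between -0.11 and 0.17.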

How the data were processed

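Total RNA of 3 ERT2 and 3 Cre-ERT2 samples, grouped by the transduced construct in the labels, was hybridised to 1 array each. The authors deposited 1 intensity per probe set and array, made with RMA (background correction, quantile normalization and probe set summary), per the submitters' processing notes. RMA's version and the annotation build: not given in the sources used here. The deposited intensities are linear (6.27 to 26714), so log2(intensity + 1) was used. Quantile normalization hides a shift shared by all genes.

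All 35556 probe sets were tested by eBayes on lmFit models (limma 3.58.1, R 4.3.3, neither trend nor covariates), with Benjamini-Hochberg adjustment and a threshold of 0.05. SEs and 95% intervals are limma's, and single adjusted p-values are limma's. Pair SEs come from both groups' variances. The probe table names 1 gene for 21789 probe sets, several for 1621 and none for 12146. Each gene was represented by its one-gene probe set with the highest mean, and each measured member had 1. The rule named all measured members, Sox4, and each further list's called genes and 4 smallest p-values. Pax5, Lyz2, Egr1, Jun, Atf3, Hspa1a, Prkdc, Atm, Atr, Ccna2 and Ccnb2 were named after their values were seen. The members, roles, lists and tests were chosen with earlier results of these data known. Windows came from RefSeq (GRCm38.p6). Calling was tested on simulated data. The main model did not pair samples by replicate number.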

Additional observations from a re-analysis of the deposited data

How the results depend on the processing

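Of 492 values of single members under 16 alternative settings, 445 kept their direction and side of the threshold, 31 lost a call and 12 gained one. The other 4 changed sign around 0 without a call on either side: Mdm2 to -0.01 and Pmaip1 to -0.02 under cyclic loess, Pmaip1 to -0.00 without ERT2 replicate 1 (-0.00 to 0.05 over the arrays left out) and Tigar to 0.03 without Cre-ERT2 replicate 3 (-0.04 to 0.03). Of the 15 called members 9 kept their call in every setting in which they were tested, and 6 (Ei24, Ddb2, Ercc5, Rrm2b, Sesn2 and Ddit4) lost it in at least 1, while Aen, Polk and Pidd1 gained one in at least 1. Plk2 and Eda2r could not be tested among the brighter probe sets alone, as the filter leaves out 4 members, and there 13 members were higher and 3 lower. An intensity trend, a further quantile normalization or a pseudocount of 16 also gave 13 higher members, and cyclic loess gave 12.

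With each array left out in turn, the number of higher members ranged from 6 to 11, the number of higher probe sets over the whole table from 606 to 1319 (1143 with all arrays) and the number of lower ones from 654 to 883 (1009). The number of fallen further targets ranged from 0 to 1, and that of risen relatives and modifiers from 0 to 1. Fewer arrays widen the errors. Median centring left 0 risen relatives and modifiers. The excess of the change of Tnfrsf10b over that of Eda2r was 1.64 with a pseudocount of 16, which pulls dim probe sets together by its construction. Sox4 kept its call throughout (-1.38 to -1.25).

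Same-numbered samples of both groups had correlations of their deviations from the group means of 0.205, 0.344 and -0.0491. Those of unlike-numbered samples ran from -0.43 to 0.325, so these values do not settle whether the numbers pair the samples. With the replicate number as a block, 11 members were higher and 3 lower, Ei24 and Rrm2b lost their calls (0.0606 and 0.0865), Polk gained one (0.0256), and Pltp, Pgf and Rchy1 lost theirs (0.0654, 0.0505 and 0.0755), so that 2 further targets were higher and 0 lower and 0 relatives and modifiers were higher. The largest shift of the median of all probe sets between scalings was from 0.022 to -0.001 on the log2 scale.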
